A study of Mus musculus with 6 samples.

Results

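The fatty acid sensing genes described here were Cd36, Fabp5, Fabp7, Lpl, Cpt1a, Cpt1c, Acaca, Fasn, Prkaa1 and Prkaa2, taken by name as every probe set that the array annotation assigns to that single symbol. These 10 genes held 19 of the 45037 probe sets tested on each array. The genes were named with earlier results of these data known, so their counts below are not those of a blind choice. The 6 arrays (Affymetrix Mouse Genome 430 2.0) carried arcuate hypothalamus dissected from mice aged 2 weeks, 3 labelled Ctrl and 3 labelled POMCDicerKO, all on a mixed C57Bl/6J, FVB/N and 129 background. POMCDicerKO mice lacked Dicer, the enzyme that cuts microRNAs from their hairpins, in POMC-expressing cells. The labels name neither the Cre driver nor the alleles of the controls nor whether a sample was 1 animal or a pool, so p-values measure the spread between these samples. As background, Pomc is also expressed for a time by precursors of other arcuate neurons, and POMC neurons make up a small part of the dissected tissue.

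The hypothalamus reads circulating lipids partly through the fate of long-chain fatty acids inside its cells. Lipoprotein lipase frees fatty acids from lipoproteins, CD36 brings them across the membrane, and small binding proteins carry them in the cytosol. AMP-activated protein kinase (AMPK) lowers the activity of acetyl-CoA carboxylase, whose product malonyl-CoA is spent by fatty acid synthase and blocks the carnitine palmitoyltransferases that admit fatty acids to mitochondria. High malonyl-CoA and long-chain acyl-CoA in the arcuate nucleus are known to lower food intake, and AMPK activity there is known to raise it.

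The sequences shown are the promoter windows of Cd36 and Cpt1c, the only member genes with a probe set at which the groups did not overlap, and the microRNA miR-33-5p, which is known to target Cpt1a and Prkaa1 messages. Promoter windows were taken from RefSeq (GRCm38.p6) and run from 250 bases before the annotated start to 50 after it. Capitals in the promoters mark the CCAAT box (CCAAT) and the nuclear receptor hexamer AGGTCA, on either strand. Capitals in the microRNA mark the seed, bases 2 to 8.
Cd36 promoter, chr5:17835847-17836146, minus strand: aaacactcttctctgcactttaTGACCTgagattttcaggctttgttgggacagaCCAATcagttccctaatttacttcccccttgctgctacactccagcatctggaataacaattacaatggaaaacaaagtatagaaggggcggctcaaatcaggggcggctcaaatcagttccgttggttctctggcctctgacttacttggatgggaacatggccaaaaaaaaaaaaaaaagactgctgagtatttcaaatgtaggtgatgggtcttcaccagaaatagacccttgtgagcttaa
Cpt1c promoter, chr7:44974802-44975101, minus strand: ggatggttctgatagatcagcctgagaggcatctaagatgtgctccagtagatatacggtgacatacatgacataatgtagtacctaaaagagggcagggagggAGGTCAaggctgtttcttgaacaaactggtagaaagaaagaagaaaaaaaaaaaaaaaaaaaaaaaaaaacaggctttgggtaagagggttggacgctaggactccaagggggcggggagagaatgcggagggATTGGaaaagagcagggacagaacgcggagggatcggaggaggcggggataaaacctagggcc
miR-33-5p, chr15:82198127-82198147, plus strand: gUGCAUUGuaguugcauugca
Windows were found for 8 of the 10 genes, and 4 of them held the hexamer (Cd36, Fabp7, Cpt1a and Cpt1c), as did 16.3% of all 32851 windows. The CCAAT box was in 5 of the 8, these 4 and Fasn, and in 37.4% of all windows. In the Cd36 window the hexamer began at -228 and the CCAAT box at -195, and in the Cpt1c window at -146 and -13. The E-box CACGTG (7.15% of all windows), the DR1 repeat of PPAR sites, which is the hexamer, any base and the hexamer again (0.0396%), and the sterol element TCACNCCAC (1.24%) were in 0 of the 8. These are matches of letters, with no binding measured, and mature microRNAs were not analysed here.

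Among the members Cd36 showed the widest difference between the groups, 1.31-fold lower in POMCDicerKO at its brightest probe set, and no member passed the test over the whole array. By limma's moderated test with Benjamini-Hochberg adjustment over all probe sets, 0 of 19 member probe sets and 0% of all probe sets passed an adjusted p of 0.05. At an unadjusted p under 0.05 there were 2 of 19, both of Cd36 and both lower, against 2.44% of all probe sets in either direction and 1.2% lower. The groups did not overlap at 3 of 19, for Cd36 at 2 probe sets and Cpt1c at 1, all lower in POMCDicerKO, against 6.36% of all probe sets in either direction and 3.22% lower. Of the 19 differences 11 were below 0 and 8 above, with a median of -0.013 on the log2 scale, beside 0.0012 for all probe sets. Each gene's brightest probe set, taken alone, gave 7 lower and 3 higher. The adjusted p was 1 for every member, as rounded, and is not repeated below.

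**Figure D1:**
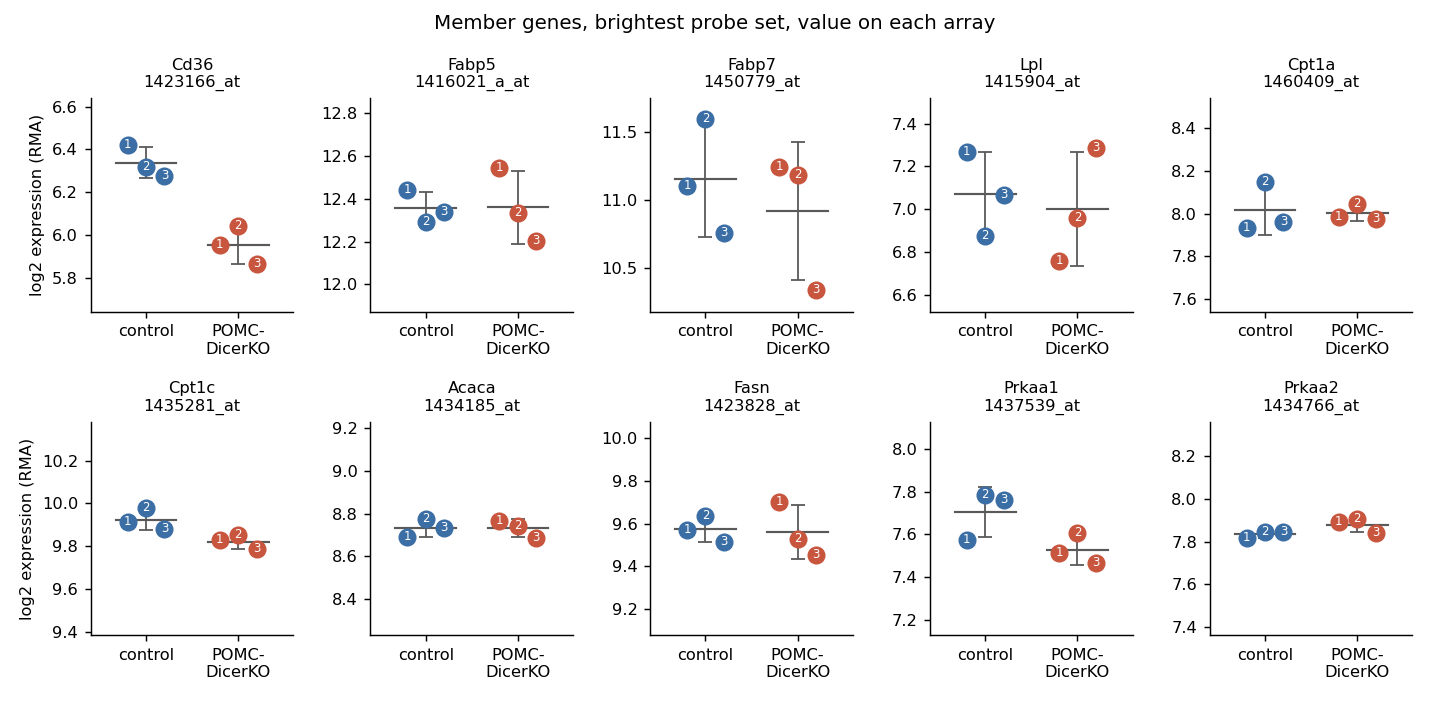
Log2 expression (y axis) of the brightest probe set of each of the 10 genes on each array, in controls (blue) and POMCDicerKO (red), numbered by replicate, with the group mean and SD (n = 3). Panels have their own y ranges; the groups are separate for Cd36 and, by a small margin, for Cpt1c.

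Cd36 encodes a membrane glycoprotein that takes up long-chain fatty acids and also serves as a scavenger receptor, and in the brain it is found on vessel walls, microglia and some neurons. At 1423166_at the controls read 6.42, 6.32 and 6.28 and the POMCDicerKO arrays 5.95, 6.04 and 5.86 (log2 level). Every POMCDicerKO array therefore lay below every control array, with a gap between the groups wider than the range within either. The control mean was 6.34 ± 0.073 (SD, n = 3) and the POMCDicerKO mean 5.95 ± 0.090 (SD, n = 3). The log2 fold change was -0.38, with a standard error (SE) of 0.075, a 95% interval from -0.56 to -0.21 and limma's unadjusted p = 0.00104, the 24th smallest of all probe sets. The two-sided exact permutation p was 0.1, the smallest that 3 against 3 samples can give.

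A further Cd36 probe set, 1450883_a_at, separated the groups in the same direction. Controls read 5.51, 5.54 and 5.60 and POMCDicerKO arrays 5.24, 5.35 and 4.96. The log2 fold change was -0.37 (SE 0.10), or 1.29-fold, with a 95% interval from -0.61 to -0.13. Limma's unadjusted p was 0.00792 and the exact permutation p 0.1. The array order within the POMCDicerKO group was the same at both probe sets, with replicate 2 highest and replicate 3 lowest. Within controls the order was reversed, with control 1 highest at 1423166_at and lowest at 1450883_a_at. The third, 1450884_at, read 3.73 to 3.81 in controls and 3.72 to 3.93 in POMCDicerKO, close to the lower end of the scale (3.05), and gave 0.067 (SE 0.074). At that level RMA values carry little signal over background. All are read from the same arrays, so their shared sign is not separate evidence. The mean of all 3 probe sets gave -0.23, and with single arrays left out the value at 1423166_at stayed between -0.43 and -0.34.

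Because Cd36 is carried by several cell types, marker genes of those cells were read on the same arrays. In bulk tissue, fewer cells of a type and less RNA per cell cannot be told apart. None of these lists had a marker past the adjusted threshold. Some markers, such as Otx2 (mean 3.74) and Cd163 (3.99), lay close to the lower end of the scale (3.05). Endothelial and pericyte genes had 8 of 13 measured members higher and 5 lower, with a list mean between -0.064 and 0.038 on control arrays and between -0.064 and 0.10 on POMCDicerKO arrays (log2 level minus the control mean). Within that list Pdgfrb was separate and lower at -0.28, while Flt1 and Cldn5 were separate and higher at 0.19 and 0.14. Microglia and macrophage genes were higher for 12 of 15, with list means from -0.10 to 0.052 in controls and from 0.0020 to 0.078 in POMCDicerKO. The mean of neither list was lower in POMCDicerKO than in controls.

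Several other marker lists were lower in POMCDicerKO together with Cd36. Meningeal and fibroblast genes were lower for 12 of 12, at 0.44, 0.51 and -0.95 in controls and -0.75, -1.0 and -1.38 in POMCDicerKO. By this list mean control 3 lay among the POMCDicerKO arrays. It read above all of them at Slc6a20a (7.23 against 6.87 to 6.97) and Fmod (5.80 against 5.12 to 5.75). Cd36 1423166_at read 6.28 on control 3 and 5.86 to 6.04 in POMCDicerKO. Set against control 3 alone, Cd36 gave -0.32 at 1423166_at and -0.42 at 1450883_a_at. Erythroid genes were lower for 3 of 3 measured, at -0.76, 0.63 and 0.13 in controls and -0.81, -0.85 and -0.62 in POMCDicerKO. Control 1 lay among the POMCDicerKO arrays for that list mean, and its Cd36 was the highest at 1423166_at. At 1450883_a_at control 1 was the lowest control (5.51), above the POMCDicerKO arrays (4.96 to 5.35). The part of either list in the Cd36 difference was not tested.

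Choroid plexus genes were lower for 5 of 8, from -0.053 to 0.090 in controls and from -0.40 to 0.060 in POMCDicerKO. Only 3 of the 8 had a mean of at least 6. Kl, a co-receptor of fibroblast growth factor hormones, was separate and lower at -0.34 (mean 5.63). The bicarbonate transporter Slc4a5 was separate and higher at 0.081, but its mean of 3.98 was close to the lower end of the scale (3.05). Ttr, the thyroid hormone carrier of the choroid plexus, was lowest of all on POMCDicerKO replicate 3 (7.20) and highest on replicate 2 (11.41). POMC neuron genes, with Pomc among them, were lower for 8 of 9, at -0.082, 0.082 and -0.00023 in controls and -0.26, -0.11 and -0.31 in POMCDicerKO. The POMC list mean, like Cd36, did not overlap between the groups. Of its 9 genes, each at its brightest probe set, only 1, Pomc, had separate groups, where 6.44% of all genes did. At a further Pomc probe set, 1455858_x_at, the groups overlapped, with control 3 at 9.35 and POMCDicerKO replicate 2 at 9.40. The log2 fold change there was -0.67 (SE 0.22). Within POMCDicerKO the list mean and Cd36 both had replicate 3 lowest and replicate 2 highest. Within controls, control 1 was lowest for the list mean, highest for Cd36 1423166_at and lowest for Cd36 1450883_a_at. In the microglia and macrophage list, where 12 of 15 genes were higher, Mrc1 was lower. Mrc1, the mannose receptor of perivascular and meningeal macrophages, read 5.65, 5.44 and 5.18 in controls and 5.32, 5.01 and 4.64 in POMCDicerKO. The difference was -0.43 (SE 0.18) at a mean of 5.21, with overlapping groups. Cd163 and Lyve1, of the same macrophages, gave 0.028 and -0.065 at still dimmer probe sets. The part of these lists in the Cd36 difference was not tested.

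**Figure D2:**
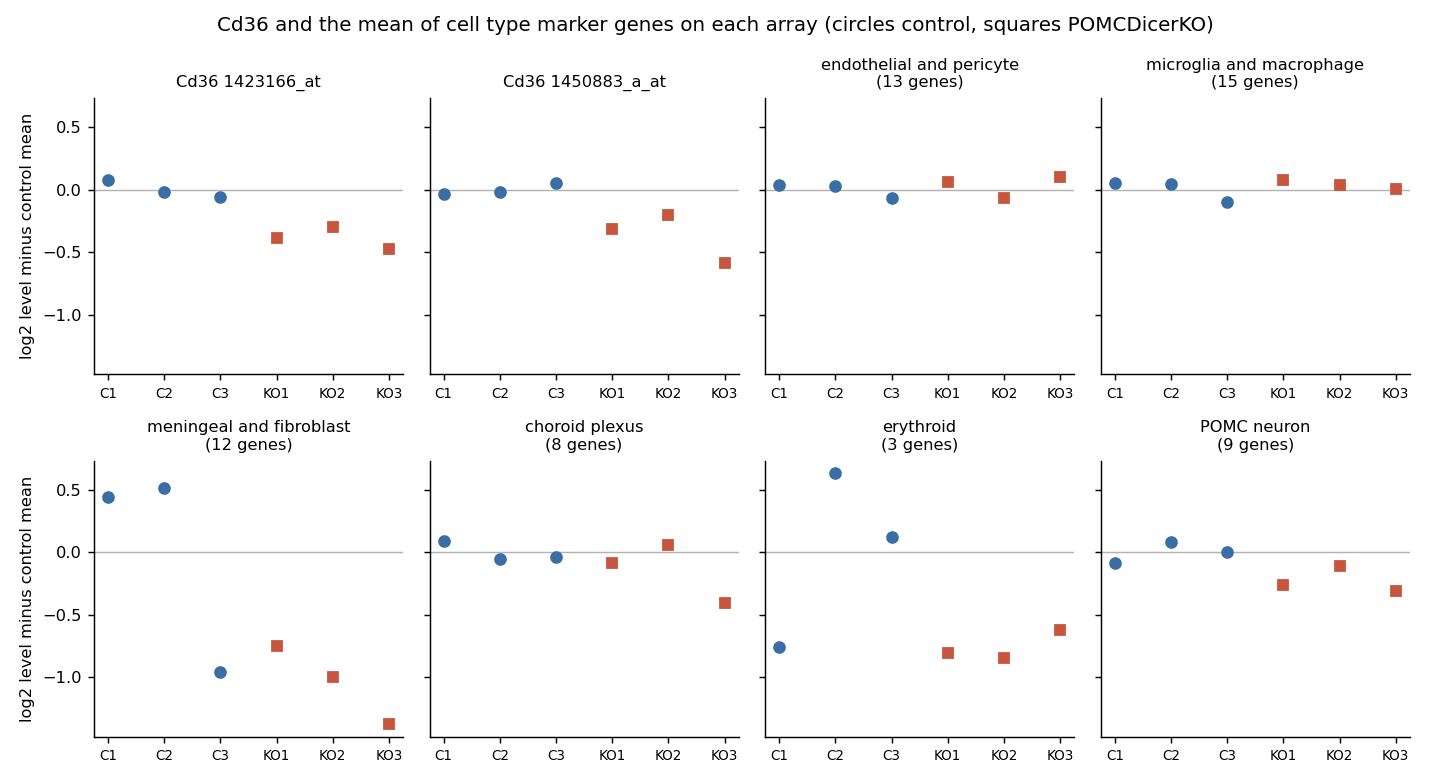
Log2 level minus the control mean (y axis) on each array, for the Cd36 probe sets 1423166_at and 1450883_a_at and for the mean of 6 lists of cell type markers; C is control and KO is POMCDicerKO. By list mean, meningeal genes split controls 1 and 2 from the other 4 arrays, and erythroid genes split controls 2 and 3 from the others. Cd36 split all 3 controls from all 3 POMCDicerKO arrays, and the part of the lists in this was not tested.

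The genes whose pattern over the 6 arrays lay nearest to Cd36 1423166_at were sought among the 11741 other genes with a mean log2 level of at least 6, as the smallest root mean square difference after centring each gene on its own mean. They were Ccnh, a cyclin of the CDK-activating kinase (0.066), Ddn, a postsynaptic protein (0.076), Nhlrc1, a ubiquitin ligase (0.080), Fxyd5, a regulator of sodium pump activity (0.081), and the dopamine transporter Slc6a3 (0.086). Ccnh, Nhlrc1 and Slc6a3 lie on chromosome 13, which holds 3.62% of the genes searched, while Cd36 lies on chromosome 5. Their own log2 fold changes ran from -0.25 for Fxyd5 to -0.36 for Slc6a3. None of the 5 was in a fatty acid list, and the ranking describes these arrays only.

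Fabp5 and Fabp7 are cytosolic fatty acid binding proteins, the former of many cell types and the latter of astrocytes, radial glia and tanycytes. Fabp5 did not separate the groups at either probe set. At 1416021_a_at controls read 12.44, 12.29 and 12.34 and POMCDicerKO arrays 12.54, 12.33 and 12.20, a difference of 0.0031 with a 95% interval from -0.22 to 0.23. At 1416022_at the log2 fold change was -0.063, with an interval from -0.30 to 0.18. POMCDicerKO replicate 1 was the highest and replicate 3 the lowest of all 6 arrays at both.

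Fabp7 was the most variable member, with a residual SD of 0.47 where the median over all probe sets was 0.10. Controls read 11.10, 11.60 and 10.76 and POMCDicerKO arrays 11.24, 11.19 and 10.33 at 1450779_at. The group ranges overlapped widely, with control 2 the highest array and POMCDicerKO replicate 3 the lowest. The log2 fold change was -0.23 (SE 0.28), with an interval from -0.89 to 0.42 (exact permutation p = 0.7), and it ran from -0.43 without control 3 to 0.061 without POMCDicerKO replicate 3. Astrocyte genes ranked the arrays within each group as Fabp7 did, with list means of -0.0047, 0.035 and -0.031 in controls and 0.054, 0.012 and -0.057 in POMCDicerKO. Of the astrocyte genes 7 were higher and 5 lower in POMCDicerKO. Tanycyte and ependymal genes were higher for 2 and lower for 9 of 11 measured. Their list means were -0.13, 0.25 and -0.12 in controls and -0.35, 0.13 and -0.14 in POMCDicerKO. Their lowest array was thus POMCDicerKO replicate 1, where Fabp7 was high. The part of either cell type in the Fabp7 spread was not tested.

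Lpl encodes lipoprotein lipase, which cuts triglycerides of lipoproteins. At 1415904_at controls read 7.27, 6.87 and 7.07 and POMCDicerKO arrays 6.76, 6.96 and 7.28. The highest and the lowest array were both POMCDicerKO, and the groups overlapped. The log2 fold change was -0.070 with an interval from -0.42 to 0.28, and without POMCDicerKO replicate 1 it was 0.052. The dimmer 1431056_a_at gave 0.020 with an interval from -0.18 to 0.22.

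Cpt1a, the mitochondrial outer membrane enzyme that malonyl-CoA inhibits, showed no separation at any of its 3 probe sets. At 1460409_at controls read 7.93, 8.15 and 7.96 and POMCDicerKO arrays 7.98, 8.04 and 7.98, a difference of -0.013 with an interval from -0.19 to 0.17. The x_at probe sets 1434866_x_at and 1438156_x_at, whose probes may also bind other transcripts, gave -0.060 and -0.070. At both of these POMCDicerKO replicate 3 was the lowest array, at 7.12 and 5.45.

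Cpt1c is the brain isoform, an endoplasmic reticulum protein that binds malonyl-CoA but has little transferase activity and is found in neurons. Controls read 9.91, 9.98 and 9.88 and POMCDicerKO arrays 9.83, 9.85 and 9.78 at 1435281_at. All POMCDicerKO arrays were below all controls, but the gap was narrow: the lowest control and the highest POMCDicerKO array stood 0.029 apart. The log2 fold change was -0.10 (SE 0.063), or 1.07-fold, with an interval from -0.25 to 0.043 that includes 0 (limma's unadjusted p = 0.142, exact permutation p = 0.1). It was -0.075 when control 2 was left out and -0.060 when only control 3 was kept. Of 10 general neuron markers 6 were higher and 4 lower, with a median of 0.035. The part of neuron number in the Cpt1c difference was not tested.

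Acaca and Fasn make and use malonyl-CoA. Acaca, acetyl-CoA carboxylase 1, read 8.69, 8.77 and 8.73 in controls and 8.77, 8.74 and 8.69 in POMCDicerKO at 1434185_at. The groups covered nearly the same range, and the log2 fold change was 0.00038 with an interval from -0.14 to 0.15. The dimmer 1427595_at gave 0.044 with an interval from -0.13 to 0.22. Fasn, fatty acid synthase, read 9.57, 9.64 and 9.51 in controls and 9.70, 9.53 and 9.45 in POMCDicerKO at 1423828_at. The POMCDicerKO arrays lay on both sides of the controls, giving -0.013 with an interval from -0.20 to 0.18. Fasn is also abundant in myelinating cells, whose 11 measured markers were all higher in POMCDicerKO, at 0.12, -0.13 and 0.0039 in controls and 0.78, 0.13 and 0.39 in POMCDicerKO. POMCDicerKO replicate 1 was highest for both Fasn and the myelin markers, while replicate 3 was second highest for the markers and lowest for Fasn. The part of myelinating cells in the Fasn values was not tested.

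Prkaa1 and Prkaa2 encode the alternative catalytic subunits of AMPK, and their differences had opposite signs. Prkaa1 read 7.57, 7.79 and 7.76 in controls and 7.51, 7.61 and 7.47 in POMCDicerKO at 1437539_at. Control 1 fell below POMCDicerKO replicate 2, so the groups overlapped by that pair alone. The log2 fold change was -0.18 (SE 0.081), or 1.13-fold, with an interval from -0.37 to 0.011 (limma's unadjusted p = 0.0612, exact permutation p = 0.2). Values with single arrays left out ran from -0.24 without control 1 to -0.14 without control 2.

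Prkaa2, the subunit that predominates in muscle and is also made by neurons, had 3 probe sets, all with a difference above 0 and none with separate groups. At 1434766_at controls read 7.81, 7.84 and 7.84 and POMCDicerKO arrays 7.89, 7.91 and 7.84, a difference of 0.045 with an interval from -0.094 to 0.18. This was the steadiest member, with a residual SD of 0.028. At 1429463_at control 2 alone read 6.99 against 7.66 to 7.95 on the other 5 arrays, and the log2 fold change of 0.19 was -0.080 without it. At the dim 1429464_at it was 0.069, from 0.0059 without control 3 to 0.11 without control 1. Whether the difference in Prkaa1 departed from that in Prkaa2 was not tested.

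**Figure D3:**
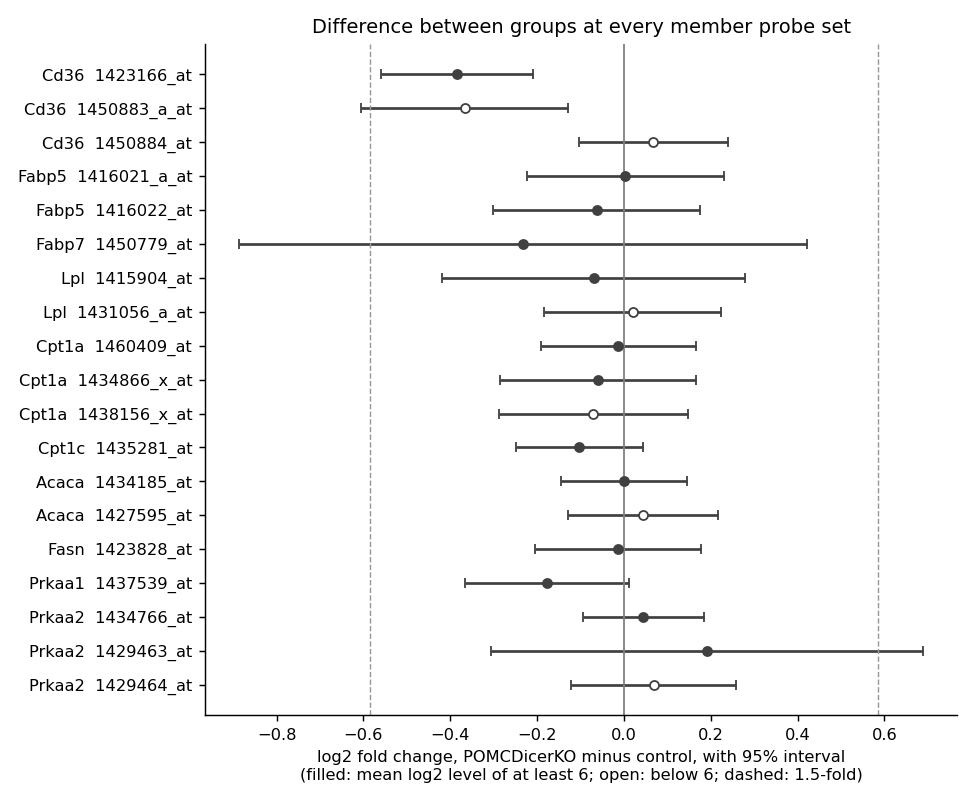
Log2 fold change of POMCDicerKO minus control (x axis) with limma's 95% interval for each of the 19 member probe sets; filled points have a mean log2 level of at least 6, and dashed lines mark 1.5-fold. The intervals of 2 Cd36 probe sets lie below 0, those of the other 17 include 0, and 16 of the 19 lie inside 1.5-fold.

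The width of the intervals sets what these 6 arrays could show. For 16 of the 19 member probe sets the 95% interval lay inside a 1.5-fold change in either direction, as it did for 96.4% of all probe sets. The exceptions were Cd36 1450883_a_at, Fabp7 1450779_at and Prkaa2 1429463_at. POMCDicerKO replicate 3 was the lowest of the 6 arrays at 11 of the 19 member probe sets, and at 7 of the 10 brightest ones, where it was lowest at 19.3% of all probe sets. The probe sets share their arrays, so this count describes that array and is not a set of separate observations.

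Around the members, 8 lists of related genes held 140 genes, of which 123 had a probe set of their own, 59 higher and 64 lower, with a median log2 fold change of -0.0029. None passed limma's adjusted threshold, and 2 had an unadjusted p under 0.05, where the brightest probe sets of all genes gave 2.41%. Their groups did not overlap for 6, against 6.44% over all genes. Genes of fatty acid uptake and binding were higher for 10 of 16, with a median of 0.017. The acyl-CoA synthetase Acsl3 was at 0.098, the transporter Slc27a1 at -0.080 and the acyl-CoA binding protein Dbi at -0.069. Lipase partners and lipoprotein receptors were higher for 7 of 13, with a median of 0.0057, and included the receptors Vldlr (0.21) and Lrp1 (-0.072) and the triglyceride lipase Pnpla2 (-0.12), whose groups were separate.

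Genes of fatty acid oxidation were lower for 15 of 18, with a median of -0.052 where the median over all genes was -0.0099. The enoyl-CoA isomerase Eci1 was at -0.17, the carnitine-acylcarnitine carrier Slc25a20 at -0.14 and the electron transfer protein Etfb at -0.11, and all 3 had overlapping groups. None of the 18 had an unadjusted p under 0.05. The list mean was -0.052, 0.081 and -0.029 in controls and -0.035, -0.030 and -0.12 in POMCDicerKO, so that control 2 and POMCDicerKO replicate 3 stood at the ends and the other 4 arrays lay together. Fatty acid synthesis and desaturation genes were higher for 10 of 20, with a median of 0.00014. The elongase Elovl1 was separate and higher at 0.29, malic enzyme Me1 was at 0.11 and the lipogenic Thrsp at -0.32.

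AMPK partner subunits and upstream kinases were higher for 9 of 16, with a median of 0.0039. The AMPK kinase Camkk2 was at 0.14, the regulatory subunit Prkag2 at -0.081 and Strada, a cofactor of the kinase LKB1, at -0.12. AMPK targets and nutrient kinases were lower for 10 of 17, with a median of -0.027. Tsc2, an inhibitor of mTOR signalling, read 7.93, 8.07 and 7.93 in controls and 7.83, 7.82 and 7.76 in POMCDicerKO, a difference of -0.17 (SE 0.069; limma's unadjusted p = 0.0363). Its groups were separate. Sik1, an AMPK-related kinase, was at 0.22 and the CREB coactivator Crtc1 at -0.12, both with overlapping groups.

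Lipid-sensing nuclear receptors and their coactivators were evenly divided, 6 higher and 6 lower of 12, with a median of -0.0071. The coactivators Ppargc1a and Ppargc1b were at 0.14 and 0.13 and the deacetylase Sirt1 at -0.10. Pparg, a nuclear receptor known to act on Cd36, read 4.34, 4.37 and 4.27 in controls and 4.53, 4.47 and 4.51 in POMCDicerKO, separate and higher at 0.18 (SE 0.063), though at a dim probe set (limma's unadjusted p = 0.0215). It was named after its values were seen, and its sign was opposite to that of Cd36. Fatty acid receptors, KATP channel and uncoupling genes were higher for 7 of 12, with a median of 0.031. The channel subunits were mixed, with Abcc9 separate at 0.20, Abcc8 at -0.16 and Kcnj11 at -0.17.

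**Figure D4:**
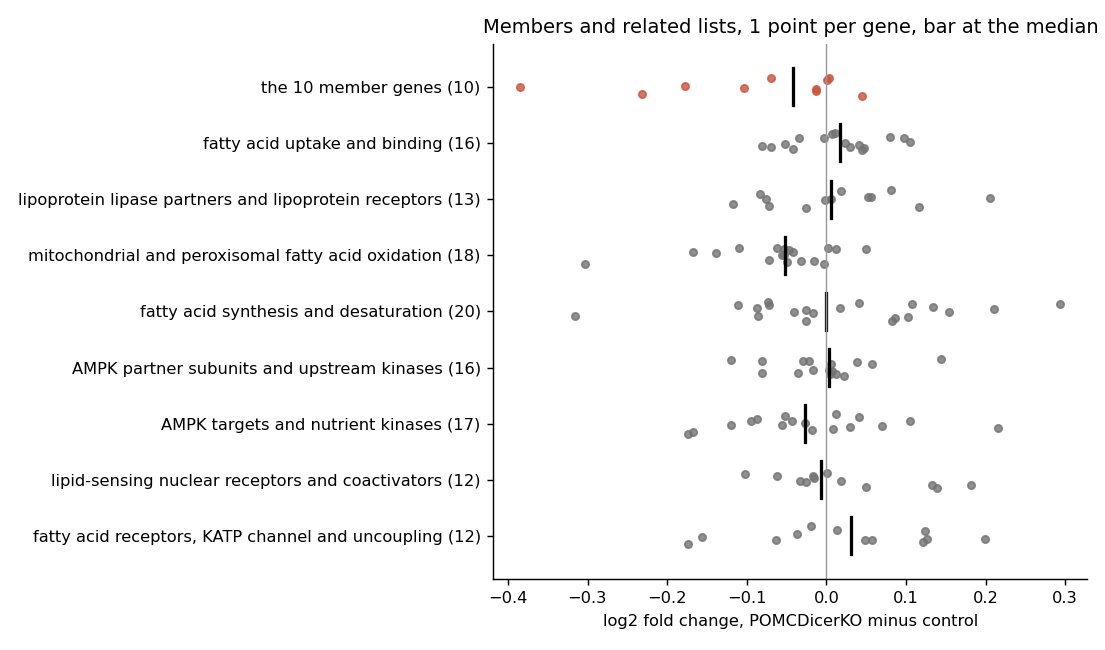
Log2 fold change of POMCDicerKO minus control (x axis) for the 10 member genes and for each of the 8 related lists, 1 point per gene at its brightest probe set, with a bar at the list median. Cd36 at -0.38 is the lowest point shown, and the medians of the 8 related lists lie between -0.052 and 0.031.

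On the arrays as a whole, Pearson r across probe sets was between 0.994 and 0.997 for every pair, across genes that are not independent replicates, and 0 pairs were identical. Pomc, the marker of the targeted cells, was present on every array (9.35 to 10.87 at 1433800_a_at). Dicer1 read 9.18 to 9.24 in controls and 9.18 to 9.33 in POMCDicerKO at 1460571_at, a difference of 0.018, and whether its probes lie in the deleted part is not known here, so it checks nothing.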

How the data were processed

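RNA of 3 control and 3 POMCDicerKO samples was hybridised to 1 array each, and groups and replicate numbers come from the sample titles. The authors deposited log2 expression values per probe set, made with RMA and the affy package per the submitters' processing notes with no version recorded. RMA equalises arrays by quantiles, so a difference shared by most transcripts is removed. Array number, not a read depth, limits precision. Of 45101 probe sets 64 AFFX controls were left out. The array annotation named 34945 by a single symbol, 932 by several and 9160 not at all. Symbols were updated by Entrez identifier through RefSeq (GRCm38.p6), which held 34741. Genes in lists are represented by their brightest probe set (18193 genes). Limma 3.58.1 in R 4.3.3 (lmFit, eBayes) compared the groups, with Benjamini-Hochberg adjustment over 45037 probe sets and a threshold of 0.05; the script was tested on simulated data. All 10 members were named with every probe set, and in each list up to 3 genes of mean 6 or more with the smallest p. Members and lists were chosen with earlier results of these data known. Alternatives covered normalisation, dim probe sets, the prior, array weights, a replicate block and left-out arrays. Unused sample columns numbered 0.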

Additional observations from a re-analysis of the deposited data

How the results depend on the processing

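No member passed the adjusted threshold under any of the 18 alternatives, so none gained or lost a call, and 279 of 312 recomputed member values kept their direction. Unadjusted p-values moved more. For Prkaa1 limma's was 0.0612 in the main fit, 0.044 after a further quantile normalisation and 0.017 without control 1. Using the mean of probe sets per gene it was 0.046. For Cpt1c it was 0.142 in the main fit, and 0.043 by the test without moderation. Cd36 1423166_at, Cd36 1450883_a_at, Cpt1c and Prkaa1 stayed below 0 in every alternative that gave them a value, 18 for each but 14 for 1450883_a_at, which the filters and the settings with 1 value per gene left out. Over all probe sets the count past the threshold was 0, and 1098 at an unadjusted p under 0.05. It ran from 0 to 2 with single arrays left out (1 without control 1, 2 without control 3) and was 1 without controls 1 and 2 together. The 33 values that changed sign belonged to 12 probe sets, whose intervals all include 0. With controls 1 and 2 left out together they were Fabp5 1416022_at 0.023, Fabp7 0.16, Lpl 1431056_a_at -0.051, Cpt1a 1460409_at 0.039, Acaca 1434185_at -0.0014 and Fasn 0.046. Array weights gave Lpl 1431056_a_at -0.024, Cpt1a 1460409_at 0.0024 and Fasn 0.014. Centring gave Fabp5 1416021_a_at -0.0043 and Acaca 1434185_at -0.0070, a further quantile normalisation Cpt1a 1460409_at 0.00086, and the mean of its probe sets Fabp5 -0.030. With single arrays left out, the ranges that crossed 0 were Fabp5 1416021_a_at -0.089 to 0.082 and 1416022_at -0.14 to 0.040, Fabp7 -0.43 to 0.061, Lpl 1415904_at -0.21 to 0.052 and 1431056_a_at -0.063 to 0.064, Cpt1a 1460409_at -0.053 to 0.053, 1434866_x_at -0.15 to 0.022 and 1438156_x_at -0.12 to 0.028, Acaca 1434185_at -0.021 to 0.023 and 1427595_at -0.00070 to 0.097, Fasn -0.084 to 0.041 and Prkaa2 1429463_at -0.080 to 0.40. The cause was not tested. Groups share replicate numbers, but the deviations of same-numbered arrays correlated at 0.13, 0.079 and 0.12, not all over 0.1, so the numbers were not taken as pairs, although each array correlated best with its own number. With the replicate block 0 probe sets and 0 members passed, and 1396 had an unadjusted p under 0.05. Fabp7 kept its log2 fold change of -0.23 there, with an SE of 0.13 against 0.28 (limma's unadjusted p = 0.116).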
